A study of Mus musculus with 15 samples.

Results

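The comparison described here sets the epididymis of 5 mice heterozygous for Plag1 (HET) against that of 5 wild-type mice (WT), across the 19388 genes that held enough counts to be tested among the 41591 gene IDs of the table. Whole epididymides of mice aged 7 weeks were sequenced as mRNA, 1 animal per library, and 5 knockouts (KO) of the same age entered the same fit, so 10 of the 15 libraries of the study are compared. The labels give the strain of all animals as Brown Swiss and the genotypes as wild type, heterozygous and knockout. How the Plag1 allele was made, the litters, and the time of day and date of collection are not given in the sources used here, and neither is what the animal numbers in the library names stand for. The tissue had been opened and rinsed in saline to remove sperm, which removes an unknown part of them. The comparison addresses what carrying a single intact copy of Plag1 does to gene expression in this organ.

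Plag1 encodes a zinc finger transcription factor that binds GC-rich DNA and is known for driving growth programmes in embryonic tissues and tumours, in part through insulin-like growth factor genes. The epididymis is the coiled duct in which sperm leaving the testis mature and are stored. Its epithelium secretes a different set of proteins in each segment (initial segment, caput, corpus and cauda), and a coat of smooth muscle moves the contents along. Many transcription factor genes tolerate the loss of a single copy.

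At the genome-wide threshold (adjusted p below 0.05, edgeR's quasi-likelihood test with Benjamini-Hochberg adjustment over all 19388 genes) 0 genes were higher in HET (0%) and 0 were lower (0%), and the smallest adjusted p was 0.981. That smallest value moved with the fit. By edgeR it was 0.157 without WT-720, 0.315 with only the HET and WT libraries and 0.999 without HET-718, and by limma voom 0.178. At an unadjusted p below 0.05 there were 428 genes higher in HET (2.21%) and 426 lower (2.20%), 854 in all, or 4.40% of those tested. All 5 HET libraries lay above all 5 WT libraries for 139 genes (0.717%) and below them for 63 (0.325%). DESeq2 called 1 gene, Pfn1, lower in HET, with 314 higher and 518 lower at an unadjusted p below 0.05, and limma voom with quality weights called 0 genes at the same threshold, with 1010 higher and 1499 lower at an unadjusted p below 0.05. Every gene and gene group that follows is therefore given by its values, and none of the HET differences passed the test in the edgeR fit. The lower share of that unadjusted count moved with the scaling: 334 genes were higher and 494 lower with DESeq2's size factors in edgeR, and 536 higher and 373 lower with upper quartile factors. It moved with single libraries too, from 280 lower genes without HET-715 and 282 without HET-693 to 708 without HET-692 and 1073 without WT-726, and the higher count was 204 without WT-709 and 217 without WT-723.

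The 95% intervals of the fold changes give the size of difference that the libraries leave room for in each gene. They are not adjusted for the number of genes, so they do not give the share of changes that the adjusted test would find. For 13981 genes (72.1%) the whole interval lay within a 1.5-fold difference either way, and for 17600 (90.8%) within 2-fold. Among the 8131 genes with a mean of 10 to 100 CPM (counts scaled to a library of 1 M) these shares were 94.9% and 99.2%, and among the 1950 genes at 100 CPM and above they were 97.5% and 99.4%. Among the 3397 genes below 1 CPM they were 10.7% and 64.1%, so most weakly expressed genes could differ by 1.5-fold at this depth. The median size of the log2 difference over all genes was 0.08, beside a median SE of 0.12. Of 83 genes whose estimated difference was above 2-fold, 46 were higher and 37 lower in HET, and 43 of the 83 lay below 1 CPM.

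**Figure D1:**
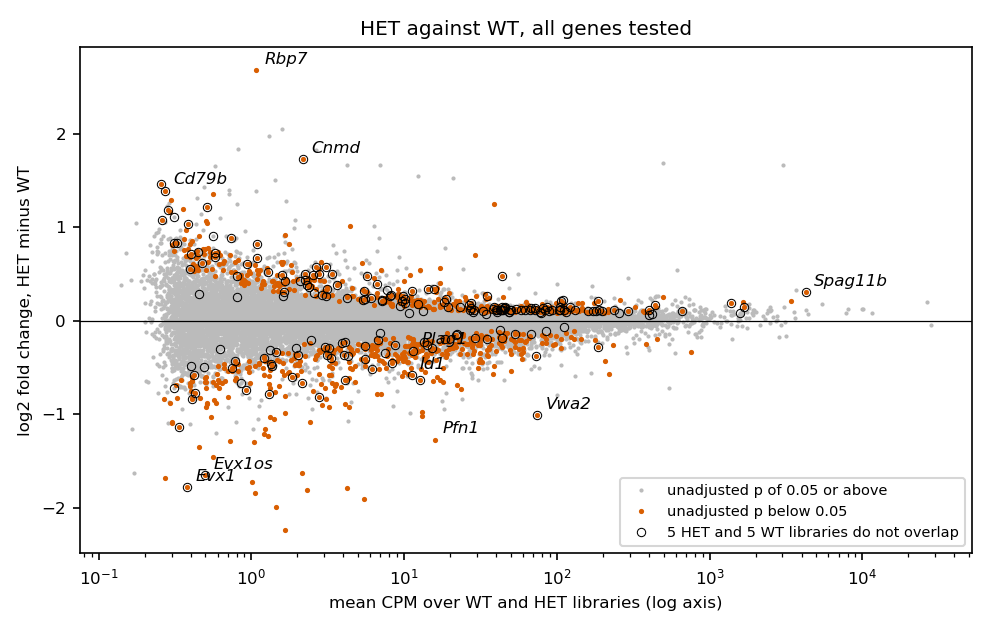
Each point is a gene: the horizontal axis is its mean CPM over the 10 HET and WT libraries (log axis) and the vertical axis its log2 fold change, HET minus WT. Orange points have an unadjusted p below 0.05, and black rings mark the 139 genes higher and 63 lower whose HET and WT libraries do not overlap; the cloud narrows towards 0 as the level rises, and 0 genes passed the adjusted threshold.

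The libraries held 20.3 to 27.8 M counts in WT and 23.6 to 33.8 M in HET. Nuclear ribosomal RNA genes took 0.0414% to 0.145% of the counts in 6 of these 10 libraries, 0.351% in HET-715, 0.358% in WT-726, 0.509% in HET-692 and 1.3% in HET-693. HET-692 and HET-693 are also the 2 HET animals numbered below 700, while all 5 WT animals are numbered above 700. KO holds animals of both number ranges, so HET and KO share a range that WT lacks. The KO values given below come from the main fit, which has no term for the number range. The part of the number range in them was not tested. The first principal component of log2 CPM (20.1% of the variance) did not separate the genotypes: WT-709, WT-723, WT-720 and HET-692 lay from -27.0 to -11.1, and HET-718, WT-719, HET-735, HET-693, WT-726 and HET-715 from 3.0 to 20.9. The secreted peroxidase Gpx5, a defining product of the caput, stood at 22814 to 27205 CPM in WT and 26411 to 31429 in HET, so the labelled tissue's defining marker was abundant in every library. In whole tissue, fewer cells of a type and less RNA per cell cannot be told apart.

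The libraries also differed in how well GC-rich transcripts were represented. The quintile of genes with the highest GC content (55.5% to 72.8%) deviated from the mean of the 10 libraries by a median log2 value of 0.16 in WT-709, 0.14 in WT-720, 0.14 in WT-723 and 0.11 in HET-692. It deviated by -0.02 in WT-719, -0.02 in HET-718, -0.07 in HET-735, -0.12 in HET-693, -0.14 in HET-715 and -0.17 in WT-726. In that quintile the median difference of HET from WT was -0.10, and in the other quintiles it ran from 0.00 to 0.03. Of the genes at an unadjusted p below 0.05, those lower in HET had a median GC content of 54.9% (362 of 426 genes with a known transcript sequence), those higher 49.3% (352 of 428), and all tested genes 49.7% (15572 of 19388). With a GC correction for each library, added after the data were seen, 257 genes were higher and 475 lower at an unadjusted p below 0.05, against 356 and 355 for the same 15572 genes without it, and 0 passed the adjusted threshold in both. For the smooth muscle, Hox, BMP, Wnt and macrophage lists below, the median with that correction is given beside the value without it.

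**Figure D2:**
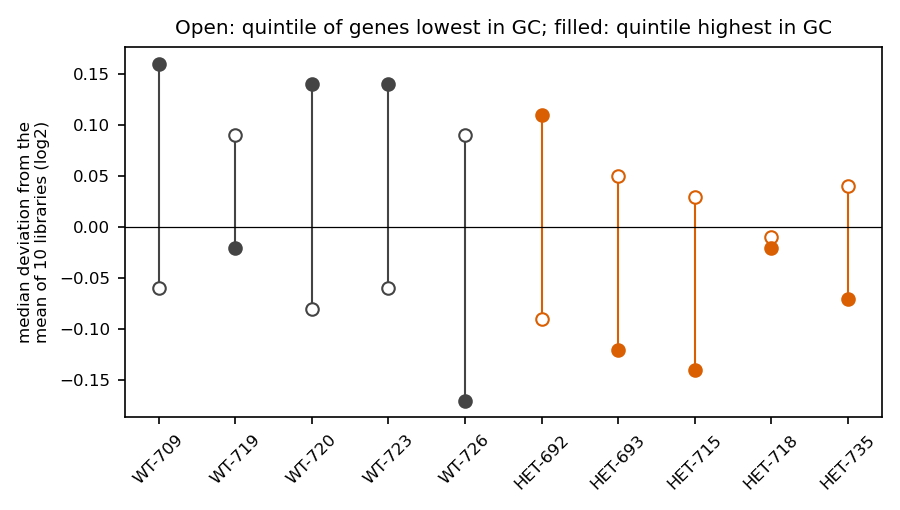
For each library the vertical axis gives the median log2 deviation from the mean of the 10 libraries of the quintile of genes lowest in GC content (open) and of the quintile highest (filled), WT in grey and HET in orange. GC-rich genes stood highest in WT-709, WT-720, WT-723 and HET-692 and lowest in WT-726, so both genotypes hold libraries of each kind.

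Per-library values in what follows are given in the order HET-692, HET-693, HET-715, HET-718 and HET-735, and then WT-709, WT-719, WT-720, WT-723 and WT-726. Plag1 itself (chr4:3898769-3938430, GRCm38.p6) stood at 9.62, 10.6, 10.5, 8.11 and 11.8 CPM in HET and at 11.9, 13, 12, 12.5 and 14 CPM in WT. HET-718 was lowest, and the highest HET library lay just below the lowest WT library, so the groups did not overlap. The means were 10.1 ± 1.38 and 12.7 ± 0.869 CPM (SD, n = 5 each), which puts HET at 80% of WT, with 223 to 327 Plag1 counts per HET library. The log2 fold change was -0.32 ± 0.10 (SE; 95% interval -0.54 to -0.11), with an unadjusted p of 0.00596 and an adjusted p of 0.981 by edgeR. An exact two-sided permutation test of Plag1 alone over the 252 regroupings of the 10 libraries gave p = 0.00794, the smallest this design allows. In KO, which is compared with the same WT libraries, Plag1 stood at 8.32 CPM, -0.61 ± 0.10 against WT (adjusted p = 0.00493). Counts over the whole gene do not show which part of the transcript an altered allele still makes, so the 80% is not a measure of intact Plag1 mRNA.

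Chchd7, whose promoter lies head to head with that of Plag1, was 61.4 ± 4.12 CPM in HET and 57.7 ± 2.7 in WT, a log2 difference of 0.09 ± 0.06. Among the 13 tested genes near Plag1 on chromosome 4 the median was 0.00, beside 0.01 over all genes, and 1 was higher and 1, Plag1 itself, lower at an unadjusted p below 0.05, against 2.21% and 2.20% of all genes. The higher one was Penk, which encodes the precursor of enkephalins (146 ± 13.4 CPM against 128 ± 9.74), and the groups overlapped for it. The related factor gene Plagl1 (18.5 ± 0.728 against 20.4 ± 2.01 CPM) and Hmga1, a chromatin protein gene (1.65 ± 0.836 against 2.24 ± 1.15), overlapped too. Igf2, Acta2, Tagln, Bmp7, Tgfbr2, Pappa2 and Evx1os below were singled out after their values were seen.

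**Figure D3:**
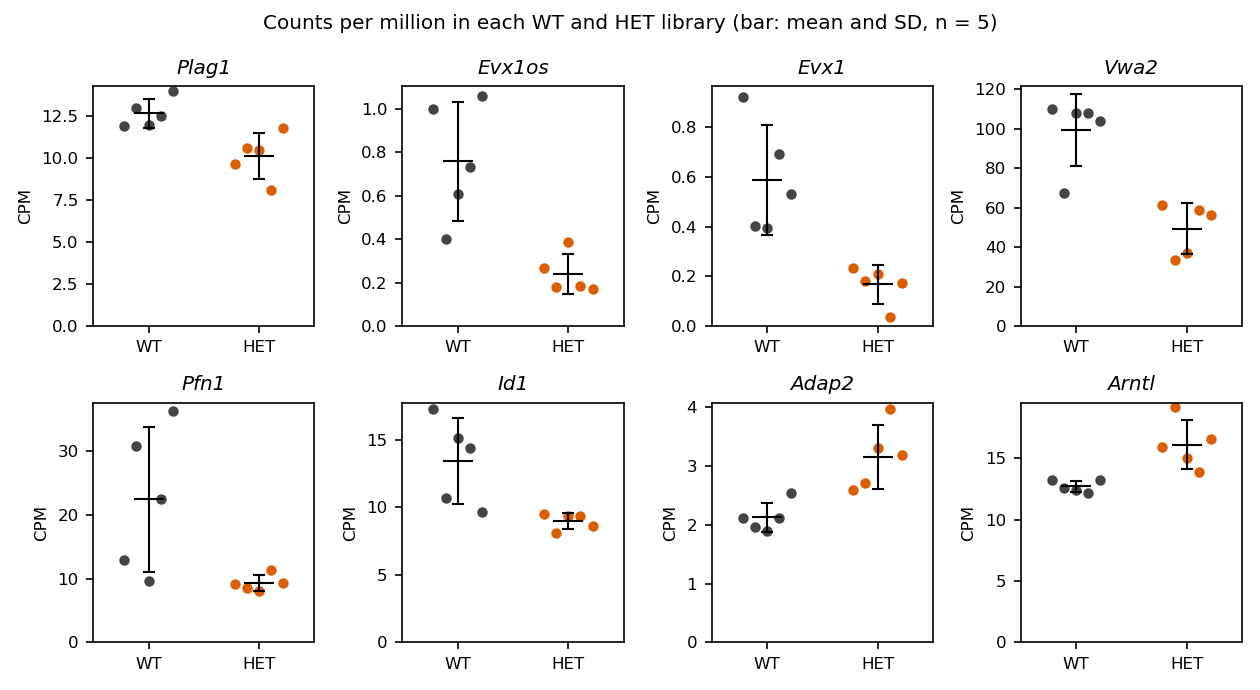
Each panel gives the CPM of a gene in the 5 WT (grey) and 5 HET (orange) libraries on an axis from 0; the bar is the mean with the SD. The groups do not overlap for Plag1, Evx1os, Evx1, Vwa2, Id1, Adap2 and Arntl, and they do for Pfn1, whose WT libraries spread from 9.68 to 36.2 CPM.

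The smallest unadjusted p of all genes, 7.23e-05, belonged to Evx1os, an RNA gene that overlaps the homeobox gene Evx1 at the end of the HoxA cluster on the opposite strand. Evx1os was 0.265, 0.181, 0.388, 0.182 and 0.172 CPM in HET and 0.998, 0.401, 0.607, 0.731 and 1.06 CPM in WT. Evx1, which specifies cell types of the embryonic neural tube, was 0.235, 0.181, 0.211, 0.0364 and 0.172 CPM in HET and 0.922, 0.401, 0.393, 0.694 and 0.53 in WT. For both, all HET libraries lay below all WT libraries, with 4 to 11 counts of Evx1os per HET library against 8 to 26 in WT, and 1 to 8 counts of Evx1 against 8 to 24. KO libraries held 1 to 4 counts of Evx1os and 0 to 5 of Evx1. Both genes thus passed the filter on counts through WT, where they are high, and their differences, p-values and lack of overlap carry that selection. The log2 differences were -1.65 ± 0.31 and -1.78 ± 0.47. In KO, against the same WT libraries, they were -3.61 ± 0.38 (adjusted p = 0.000824) and -3.53 (adjusted p = 0.00436). The libraries were made with a stranded kit, but the strand setting of the counting is not given, so reads of this pair cannot be assigned to either gene with certainty.

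The promoters of genes low in HET are shown because the studied factor binds DNA: Evx1, and Vwa2 and Sfrp2 from the leading lower genes described next. The genes were picked by hand and not by a rule. Pfn1 and Id1, with a smaller unadjusted p by edgeR than Sfrp2, are not shown. The promoters shown therefore do not stand for the lower genes as a set. They are RefSeq windows of GRCm38.p6 from 250 bases before to 50 after a RefSeq start, chr6:52313248-52313547 on the plus strand for Evx1, chr19:56874166-56874465 plus for Vwa2 and chr3:83766071-83766370 plus for Sfrp2. The start used for Sfrp2 lies inside the gene model, which begins upstream of this window, at 83765750. Capitals mark every match to a PLAG1-type motif, GGGGC or GAGGC followed by GGG after a gap of 6, 7 or 8 bases, searched on both strands.
Vwa2: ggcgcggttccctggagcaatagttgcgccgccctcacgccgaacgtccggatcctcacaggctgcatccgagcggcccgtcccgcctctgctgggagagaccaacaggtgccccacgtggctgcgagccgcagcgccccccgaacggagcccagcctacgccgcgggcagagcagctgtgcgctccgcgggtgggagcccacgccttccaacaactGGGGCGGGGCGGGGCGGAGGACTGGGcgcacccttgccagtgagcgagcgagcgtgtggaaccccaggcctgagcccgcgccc
Sfrp2: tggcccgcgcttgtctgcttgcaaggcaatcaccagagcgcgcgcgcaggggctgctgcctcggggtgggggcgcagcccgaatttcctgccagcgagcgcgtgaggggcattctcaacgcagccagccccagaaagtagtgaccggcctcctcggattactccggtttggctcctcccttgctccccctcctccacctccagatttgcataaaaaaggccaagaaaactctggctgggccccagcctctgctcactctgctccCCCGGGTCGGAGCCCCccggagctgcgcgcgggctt
Evx1: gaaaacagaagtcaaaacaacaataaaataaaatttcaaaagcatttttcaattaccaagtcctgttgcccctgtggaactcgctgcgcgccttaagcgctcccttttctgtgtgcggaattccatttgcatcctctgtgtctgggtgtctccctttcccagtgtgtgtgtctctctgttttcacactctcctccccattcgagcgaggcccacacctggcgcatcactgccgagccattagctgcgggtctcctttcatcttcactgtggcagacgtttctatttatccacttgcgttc
Vwa2 held 2 overlapping matches, from -33 to -20 and from -23 to -8 relative to the start base counted as 0, and Sfrp2 held 1 on the other strand, from 14 to 29. Evx1 held 0 matches in this window. Of the 14099 promoters of tested genes in the RefSeq table, 31.9% held a match. The share was 18 of 41 (43.9%) for genes whose HET libraries all lay below WT and 29 of 107 (27.1%) for those all above. These 41 are the genes with a promoter in the RefSeq table, out of 63. At an unadjusted p below 0.05 the share was 111 of 308 (36.0%) for lower genes and 83 of 318 (26.1%) for higher genes. The median GC content of the window was 59.7%, 56.0%, 60.0% and 56.7% in these sets, in that order, and 59.3% over the tested promoters. These shares were not tested, and a match describes letters, not binding.

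Vwa2, a gene for an extracellular matrix protein with von Willebrand factor domains, was well expressed and did not overlap between the groups. It stood at 61.4, 33.5, 36.9, 58.8 and 56.3 CPM in HET and at 110, 67.3, 108, 108 and 104 CPM in WT. WT-719 lay apart from the other WT libraries and still above every HET library. The means were 49.4 ± 13.1 and 99.4 ± 18 CPM, a log2 difference of -1.01 ± 0.24 (95% interval -1.52 to -0.50, unadjusted p = 0.000727 by edgeR). The adjusted p was 0.981 by edgeR and 0.0504 by DESeq2. In KO, against the same WT libraries, the difference was -0.80 (adjusted p = 0.0578).

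Pfn1, which encodes the actin-binding protein profilin, had the smallest unadjusted p among the lower genes of at least 1 CPM that the naming rule admits, 0.000431. It was 9.2, 8.54, 8.04, 11.4 and 9.33 CPM in HET and 12.9, 30.8, 9.68, 22.5 and 36.2 CPM in WT. The HET libraries were close together, whereas WT ran from 9.68 to 36.2, and HET-718 lay above the lowest WT library. The log2 difference was -1.27 ± 0.28, and DESeq2 gave -1.27 with an adjusted p of 0.0274, against 0.981 by edgeR; the cause of this difference between tools was not tested. Pfn1 overlaps Eno3, an enolase gene, in the RefSeq annotation, so its counts depend on how shared reads were assigned.

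The other lower genes of this group did not share a single role. Id1, a target of bone morphogenetic protein (BMP) signalling that blocks differentiation factors, was 9.47, 8.1, 9.37, 9.35 and 8.6 CPM in HET and 17.3, 10.7, 15.1, 14.4 and 9.66 CPM in WT. HET was narrow and WT wide, and the highest HET library lay just under the lowest WT library. Sfrp2, a secreted modulator of Wnt signalling, was 8.64 to 11.6 CPM in HET and 13.7 to 17.4 in WT, and Wif1, a secreted Wnt inhibitor, 0.959 ± 0.147 against 1.65 ± 0.378 CPM. Nrn1, a membrane-anchored growth factor gene of neurons, was 1.99 ± 0.559 against 3.51 ± 0.548 CPM, and Upb1, an enzyme gene of pyrimidine breakdown, 1.65 ± 0.367 against 2.63 ± 0.433. Coa6, needed to assemble cytochrome c oxidase, was 4.73 ± 0.418 against 6.28 ± 0.701 CPM, with WT-709 (7.53) apart from the other WT libraries. Clmp, a cell adhesion gene, was 12.8 ± 0.978 against 15.4 ± 0.862 CPM, and Gpr4, a proton-sensing receptor gene of blood vessels, 3.22 ± 0.578 against 4.99 ± 0.552. Adamts3, a procollagen protease gene, stood at 0.664 ± 0.136 against 1.05 ± 0.105 CPM. For these 9 genes the groups did not overlap, whereas for Tmem200b (2.04 ± 0.552 against 3.8 ± 1.11 CPM) and Proser2 (3.72 ± 0.866 against 5.33 ± 0.47) they did. In the 23 other fits all 11 kept a negative sign and an adjusted p above the threshold.

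Genes higher in HET were led by Adap2, which encodes a regulator of small GTPases at the membrane. Adap2 was 2.59, 2.71, 3.31, 3.97 and 3.18 CPM in HET and 2.11, 1.96, 1.89, 2.12 and 2.53 CPM in WT. The lowest HET library lay just above the highest WT library, and the log2 difference was 0.57 ± 0.14 (unadjusted p = 0.000694, the smallest among the higher genes that the rule admits). In KO, against the same WT libraries, it was 0.87 (adjusted p = 0.00392). Gpr65, a proton-sensing receptor of immune cells, stood at 1.34 to 1.62 CPM in HET and 0.998 to 1.11 in WT. Slc9a4, a sodium-hydrogen exchanger gene, stood at 2.71 to 3.18 CPM in HET and 1.76 to 2.69 in WT. Neither overlapped.

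Arntl, the core clock factor BMAL1, was 15.9, 19.2, 15, 13.9 and 16.6 CPM in HET and 13.2, 12.6, 12.4, 12.2 and 13.2 CPM in WT. WT was narrow, and every HET library lay above it (log2 0.34 ± 0.10). Other higher genes at a good level differed little in size: Chd1l, a chromatin remodeller of DNA repair, was 29 ± 1.08 against 25.5 ± 1.35 CPM. The splicing factor gene Sf3b3 was 110 ± 3.08 against 98.7 ± 5.53 CPM, and Dctn5, a subunit gene of dynactin, 47.9 ± 1.33 against 43.3 ± 1.1. None of these overlapped. Brwd1, a bromodomain gene, did (10.2 ± 1.08 against 8.02 ± 0.796 CPM). Supt4b, a copy of a transcription elongation factor gene that may share reads with its paralog, was 6.03 ± 0.329 against 4.84 ± 0.36 CPM.

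Some of the largest estimates among the higher genes rested on a few animals. Rbp7, a retinol-binding protein gene of fat and vessels, was 1.12, 0.145, 0.176, 4.8 and 3.1 CPM in HET and 0.23, 0.251, 0.321, 0.256 and 0.367 in WT. HET-692, HET-718 and HET-735 were high and the other HET libraries lay below every WT library, so the log2 difference of 2.68 ± 0.76 describes 3 animals. Cnmd, a cartilage and tendon glycoprotein gene, was 6.5, 4.12, 1.34, 1.75 and 2.92 CPM in HET and 1.15, 1.3, 1.14, 1.28 and 0.163 in WT. The groups did not overlap, but the highest values belong to the 2 HET animals numbered below 700; the log2 difference was 1.73 ± 0.60 over all libraries and 0.95 among animals numbered above 700. Serpina3c, of a family of close copies, gave 0.82 ± 0.26 and 0.47 in the same way. Brinp3, a gene of the nervous system, was 3.68 ± 0.561 against 2.49 ± 0.268 CPM and Vgll3, a cofactor gene of TEAD factors, 3.95 ± 0.433 against 2.8 ± 0.419. Gpihbp1, which holds lipoprotein lipase on capillaries, was 3.26 ± 0.281 against 2.31 ± 0.465 CPM, and Llcfc1, a sperm-egg fusion gene, 2.64 ± 0.469 against 1.86 ± 0.26.

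Genes of the secretory epithelium had small positive medians in HET. In the list of 27 caput epithelium genes 22 differences were positive and the median was 0.12, and in 33 beta-defensins 28 were positive with a median of 0.12, beside 52.8% positive and a median of 0.01 over all genes. Lipocalins gave 0.13 (7 of 8 positive) and epididymal RNases 0.11 (7 of 8). At an unadjusted p below 0.05 there were 1 higher gene of 27, 3 of 33, 0 of 8 and 1 of 8 in these lists, against 2.21% of all genes, and 0 lower, against 2.20%. In the other fits these medians ranged from 0.08 to 0.14 (caput), 0.07 to 0.20 (beta-defensins), 0.05 to 0.16 (lipocalins) and 0.07 to 0.19 (RNases). The beta-defensin score, the mean log2 CPM of the list minus its WT mean, was -0.09 in HET-692 and 0.09 to 0.24 in the other HET libraries, against -0.06 to 0.06 in WT. The caput list also holds membrane transporter and cell enzyme genes, such as Mfsd2a, Slc38a5 and Pemt. The lists share some genes and the same libraries, so their medians are not independent of each other.

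Spag11b, which encodes a defensin-like protein of the initial segment and caput, was 4555, 4963, 4743, 5003 and 4299 CPM in HET and 3674, 4034, 3898, 3419 and 4005 CPM in WT. Every HET library lay above every WT library, with a log2 difference of 0.31 ± 0.10. Reads shared with its neighbour Spag11a could be split between them. Lcn8, a lipocalin that carries small lipids, was 4098 ± 659 against 3250 ± 527 CPM and Lcn5 5803 ± 572 against 5120 ± 447. Gpx5, a secreted glutathione peroxidase, gave 28532 ± 2072 against 24810 ± 1877 CPM. The beta-defensins Defb20 (3672 ± 367 against 3177 ± 291 CPM), Defb42 (1773 ± 140 against 1547 ± 95) and Defb23 (535 ± 77.6 against 449 ± 34.5) overlapped, as did those lipocalins and Gpx5. The initial segment list as a whole had a median of 0.06, with 16 of 24 positive. Eppin, a protease inhibitor on sperm, was 279 ± 27.5 against 239 ± 10.3 CPM, in a list of 34 protease inhibitors whose median was 0.02.

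Other epithelial functions lay near 0. The median was 0.02 for 37 antioxidant enzymes, -0.01 for 26 fluid and ion transport genes, -0.03 for 9 clear cell genes, 0.00 for 11 basal cell genes and 0.00 for 21 junction genes. Gstm6, a glutathione transferase gene, was 200 ± 17.6 against 174 ± 5.46 CPM without overlap, and Aqp5, a water channel gene, 1.13 ± 0.136 against 1.53 ± 0.186. The clear cell regulator Foxi1 was 81.6 ± 3.51 against 85.3 ± 4.29 CPM (95% interval of the log2 difference -0.18 to 0.05), and the basal cell integrin Itga6 56.6 ± 2.81 against 53.5 ± 7.04 (-0.07 to 0.24). The junction genes F11r (139 ± 5.08 against 130 ± 3.69 CPM) and Gjb2 (6.31 ± 0.509 against 5.08 ± 0.892) overlapped. Cldn3, of the same list, went the other way with overlap (105 ± 18.5 against 158 ± 59.8 CPM, log2 difference -0.59 ± 0.29). Of the 21 junction genes 10 were positive and 11 negative. At an unadjusted p below 0.05 by edgeR 2 were higher and 0 lower, against 2.21% and 2.20% of all genes. Among 22 androgen receptor and androgen-responsive genes 10 were positive and 12 negative, and the median was 0.00. Of these, 0 were at an unadjusted p below 0.05 in either direction, against 2.21% higher and 2.20% lower of all genes. Sord, the sorbitol dehydrogenase gene, was 24.5 ± 2.86 against 21.5 ± 1.47 CPM.

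Of 20 genes of the corpus, cauda and vas deferens, 9 were positive and 11 negative, with a median of -0.03. Krt20, a keratin of surface epithelia, was 0.735, 0.687, 1.02, 0.437 and 0.731 CPM in HET and 0.23, 0.201, 0.393, 0.329 and 0.367 CPM in WT, which did not overlap, with a log2 difference of 1.22 ± 0.33. In KO, against the same WT libraries, the log2 difference of Krt20 was 1.68 (adjusted p = 0.00857). Krt20 held 4 to 11 counts per WT library, 12 to 29 in HET and 14 to 54 in KO. It passed the filter on counts mainly through HET and KO, where it is high. The uroplakin gene Upk1b was 37.4 ± 3.27 against 30.6 ± 2.81 CPM, with overlap. At an unadjusted p below 0.05 by edgeR, 2 genes of the list were higher, Krt20 and Upk1b, against 2.21% of all genes. Hoxa11 (-0.58) and Hoxd10 (-0.52), described below, were the 2 lower ones, against 2.20%. Without overlap there was 1 higher, Krt20, and 1 lower, Hoxd10, against 0.717% and 0.325%.

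**Figure D4:**
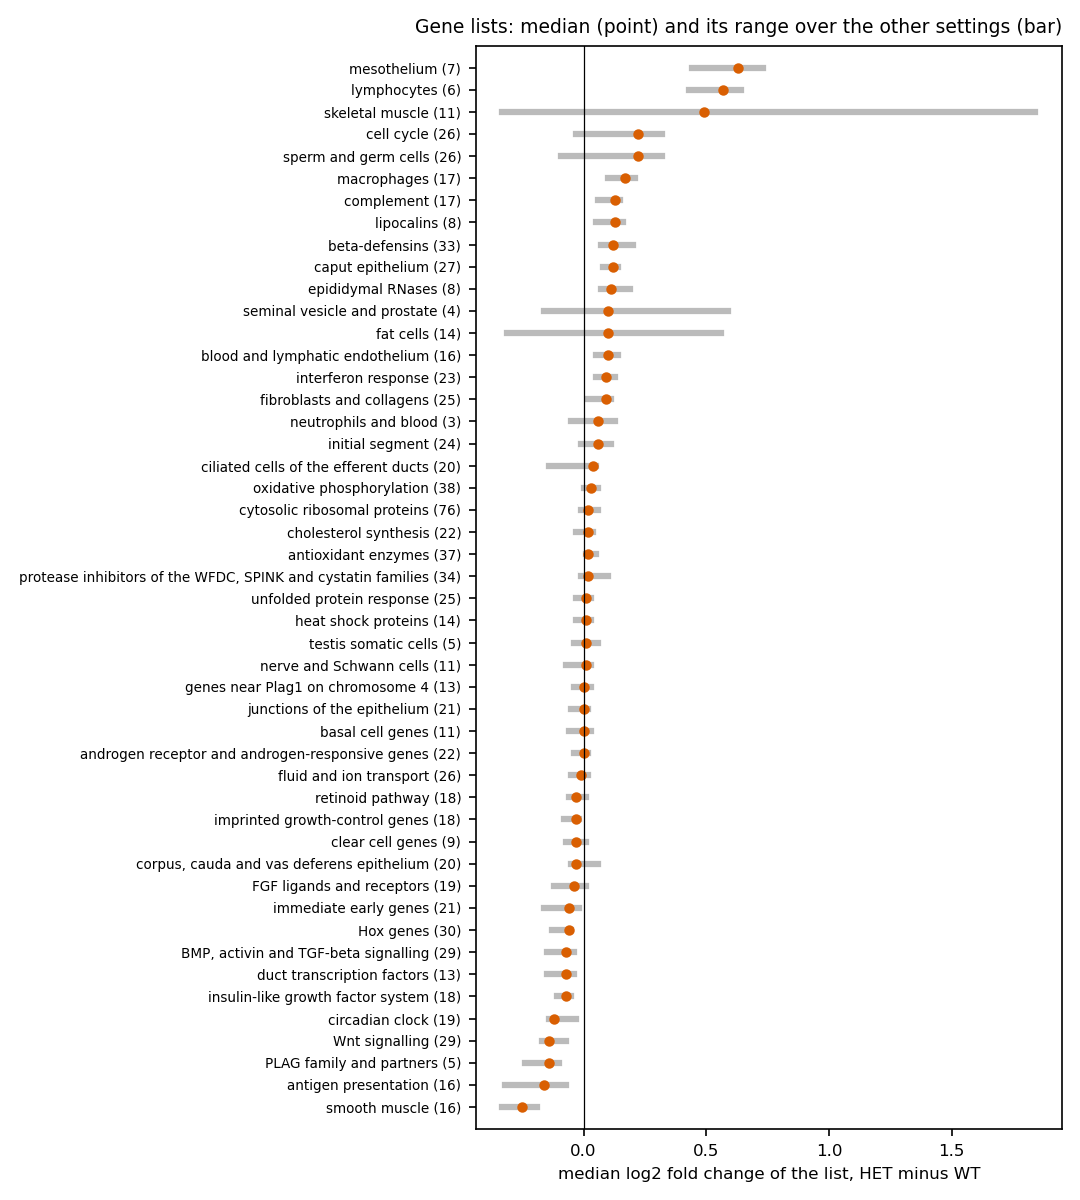
Each orange point is the median log2 fold change, HET minus WT, of a gene list, with the number of tested genes in brackets, and the grey bar is the range of that median over the 23 other fits. Smooth muscle has the lowest median (-0.25) and mesothelium the highest (0.63), whereas most epithelial lists lie within 0.13 of 0.

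Smooth muscle genes had a median log2 difference of -0.25, the lowest of the 48 lists, beside 0.01 over all genes. Of 16 tested genes of the contractile coat, 15 were negative, 8 had an unadjusted p below 0.05, all lower, against 2.20% of all genes, and 1 did not overlap (lower, against 0.325%). With the GC correction the median was -0.22. The list score was -0.01, -0.39, -0.57, -0.11 and -0.29 in HET and 0.05, -0.15, 0.11, 0.05 and -0.07 in WT. HET-715 and HET-693 were lowest, and HET-692 and HET-718 lay within the WT range. HET-715 and HET-693 were also the HET libraries with the lowest level of GC-rich transcripts, and HET-692 the one with the highest. WT-726, with the lowest level of all 10 libraries (-0.17), had a smooth muscle score of -0.07, and HET-735, at -0.07, had a score of -0.29. The part of GC content in the score of each library was not tested. The members share a tissue layer and the same libraries, so the 8 genes are not independent observations.

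Synpo2, an actin-bundling protein gene of muscle, was 75.2, 61.1, 46.1, 66.3 and 69 CPM in HET and 90.5, 77.8, 82.1, 77.7 and 84.6 CPM in WT, which did not overlap. Myh11, the smooth muscle myosin heavy chain, was 892, 558, 511, 722 and 663 CPM in HET and 909, 814, 805, 874 and 816 in WT. HET-692 lay within the WT range and the other HET libraries below it. Mylk, the kinase that activates that myosin, was 419 ± 58.4 against 483 ± 15.5 CPM, and Cnn1, a calponin gene, 177 ± 34.6 against 238 ± 58.3, with WT-720 alone at 339. Acta2, smooth muscle actin, was 830 ± 144 against 932 ± 94.9 CPM, and Tagln, a classical marker, was counted at only 0.244 against 0.378 CPM; Tagln overlaps Pcsk7 in the annotation. In KO, against the same WT libraries, Synpo2 was 0.10 (adjusted p = 0.641) and Myh11 0.10 (0.666).

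Hox genes pattern the regions of the body axis and of the duct, and the lower members were Hoxa10, Hoxa11, Hoxb3, Hoxb9, Hoxd3, Hoxd10, Hoxd11 and Evx1. Of 30 tested genes 23 were negative and 8 had an unadjusted p below 0.05, all lower, against 2.20% of all genes, and 3 did not overlap (Hoxd10, Hoxd11 and Evx1), against 0.325%. Evx1, counted in both, passed the filter on counts through the WT libraries. The median was -0.06 with and without the GC correction. It was -0.13 without WT-726, -0.12 without WT-719 and -0.10 to -0.06 without any other single library, and the list score was -0.23 to -0.09 in HET and -0.09 to 0.13 in WT. Hoxd10 was 6.79, 5.46, 3.17, 4.66 and 5.33 CPM in HET and 7.18, 6.97, 8.43, 6.98 and 7.01 CPM in WT. Hoxd11, which shares part of its locus with Hoxd10, was 0.853, 0.904, 0.317, 0.619 and 0.731 CPM in HET and 1.38, 0.953, 1.29, 1.13 and 0.978 in WT. In both, HET-715 was lowest and every HET library lay below WT. Hoxa10 (12.1 ± 1.95 against 16.5 ± 2.28 CPM) and Hoxa11 (2.56 ± 0.441 against 3.84 ± 0.603) overlapped, the latter through WT-726 at 2.77. Against the same WT libraries the KO values were -0.60 (adjusted p = 0.0494) for Hoxd10, -0.20 (0.674) for Hoxd11, -0.18 (0.418) for Hoxa10 and 0.03 (0.935) for Hoxa11.

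In the BMP, activin and TGF-beta list, 8 of 29 genes had an unadjusted p below 0.05, all lower, against 2.20% of all genes, and the median was -0.07 (-0.06 with the GC correction, -0.04 without HET-715 and -0.10 to -0.05 without any other single library). They were the ligand genes Bmp2, Bmp7 and Tgfb1, the targets Id1, Id2, Id3 and Smad6 and the activin inhibitor gene Fst, with no receptor gene among them. The ligand gene Bmp7 was 13.4, 10.1, 13.2, 12.9 and 12.6 CPM in HET and 14.3, 14.1, 15.1, 15.7 and 13.7 in WT, without overlap, and Bmp2 was 1.3 ± 0.228 against 1.96 ± 0.503. The receptor gene Tgfbr2 went the other way without overlap, at 24.3 ± 1.21 against 21.9 ± 1.09 CPM (0.15 ± 0.10, unadjusted p = 0.169 by edgeR). The targets Id3 (13.4 ± 2.91 against 20.8 ± 6.35 CPM) and Smad6, an inhibitor of the pathway (2.66 ± 0.593 against 3.99 ± 1.22), overlapped. In WT Id3 was 24.4, 16.9, 30, 18.6 and 14.3 CPM, where the GC-rich quintile deviated by 0.16, -0.02, 0.14, 0.14 and -0.17. The part of GC content in Id3 was not tested. In Wnt signalling 23 of 29 genes were negative and the median was -0.14 (-0.10 with the correction, -0.07 without WT-719 and -0.09 without HET-718), with 2 lower at an unadjusted p below 0.05, Sfrp2 and the ligand gene Wnt6 (4.01 ± 0.285 against 4.93 ± 0.645 CPM). The ligand gene Wnt4 was 26.3 ± 3.67 against 29.9 ± 2.05 CPM. The FGF list had a median of -0.04, with Fgfrl1, a decoy receptor gene, at 16.7 ± 1.6 against 18.9 ± 1.67.

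The insulin-like growth factor genes, of which Igf2 is a known PLAG1 target elsewhere, had a median of -0.07. At an unadjusted p below 0.05 there were 0 of 18 in either direction, against 2.21% higher and 2.20% lower of all genes. The groups did not overlap for 1 of the 18 (lower, against 0.325%). Pappa2, a protease gene that cleaves binding proteins of the family, was 3.75 ± 0.162 against 4.87 ± 0.483 CPM without overlap (log2 difference -0.38 ± 0.25). Its KO libraries held 33 to 145 counts, and that spread enters the SE. Igf2 was 15.7, 13, 16.6, 15.4 and 14.4 CPM in HET and 16.6, 15, 18.3, 17.9 and 14.8 in WT, with wide overlap, and its 95% interval ran from -0.47 to 0.20. Igf1, the circulating growth factor of the family, was 31.8 ± 3.52 against 25.6 ± 2.83 CPM (0.32, interval -0.03 to 0.66). In KO, against the same WT libraries, the log2 difference of Igf1 was 1.19 (adjusted p = 0.00336). Igfbp3, a binding protein gene, was 20.1 ± 2.34 against 18 ± 1.46 CPM and Irs2, a receptor adaptor gene, 10.1 ± 1.17 against 13.1 ± 2.63. The duct transcription factors Gata3 (40.5 ± 0.801 against 46.3 ± 4.45 CPM) and Esr1, the estrogen receptor (75.7 ± 1.89 against 83.8 ± 5.24), were each below the WT mean in 5 of 5 HET libraries, with overlap.

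Macrophage genes stood slightly higher in HET. Of 17, 13 were positive, the median was 0.17 (0.20 with the GC correction, 0.11 without WT-726), and the score was 0.12 to 0.19 in HET against -0.13 to 0.13 in WT, where WT-719 and WT-720 were highest. Adgre1, the F4/80 antigen, was 5.79, 6.47, 8.74, 6.37 and 5.85 CPM in HET and 4.38, 5.32, 4.86, 4.57 and 4.77 CPM in WT. HET-715 was highest and the groups did not overlap. Tyrobp, a signalling adaptor, was 5.25 to 6.91 CPM in HET and 5.03 to 5.18 in WT without overlap, whereas Cx3cr1, a receptor of resident macrophages (10.2 ± 0.805 against 8.4 ± 0.938), and the protease Ctss (19.5 ± 1.66 against 17.4 ± 1.36) overlapped. Against the same WT libraries the KO differences were 0.77 for Adgre1 (adjusted p = 0.0166), 0.59 for Tyrobp (0.0139) and 0.64 for Cx3cr1 (0.00455).

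Lymphocyte genes were near the floor of detection: only 6 of 14 were tested, all below 1 CPM, with a median of 0.57. Cd79b, part of the B cell receptor, was 0.529, 0.326, 0.529, 0.255 and 0.344 CPM in HET and 0.115, 0.15, 0.214, 0.146 and 0.122 in WT, which did not overlap. Ighm, the IgM heavy chain, was 0.819 ± 0.306 against 0.31 ± 0.149 CPM, with overlap. Cd79b held 3 to 6 counts per WT library, 7 to 18 in HET and 10 to 17 in KO. For Ighm these were 4 to 14, 12 to 28 and 19 to 51. Both genes passed the filter on counts mainly through HET and KO, where they are high. Their differences and the list median carry that selection. Mesothelium, the lining of the organ's surface, had a median of 0.63 over 7 genes, 5 positive and 2 negative (from -0.16 to 1.28). Msln was 2.25 ± 0.591 against 1.28 ± 0.323 CPM and Wt1 1.96 ± 0.378 against 1.27 ± 0.236, each with overlap. The mesothelium score was 0.76, -0.34, 0.57, 0.85 and 0.31 in HET and -0.48 to 0.23 in WT, so HET-693 stood apart from the other HET libraries. Fibroblast genes had a median of 0.09 (22 of 25 positive, 0.02 to 0.11 in the other fits; Sparc 635 ± 73.5 against 545 ± 32.1 CPM, Dcn 351 ± 49.9 against 312 ± 23.8 and, without overlap, Mfap5 8.68 ± 0.643 against 6.88 ± 0.694). Endothelial genes had a median of 0.10 (14 of 16 positive; Esam 20.3 ± 2.08 against 18.2 ± 1.37 and Cdh5 15.3 ± 2.35 against 13.6 ± 0.984). C7, a complement gene of stromal cells, was 56.9, 50.9, 55, 39.3 and 51.9 CPM in HET and 34.2, 39, 35.5, 34.4 and 38.8 in WT. HET-718 lay just above WT and the other HET libraries well above it, and in KO, against the same WT libraries, the log2 difference of C7 was 1.15 (adjusted p = 0.00569).

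Genes of skeletal muscle and fat were high in single libraries of both genotypes. The skeletal muscle score was 2.10 in HET-718, 0.92 in WT-720 and -0.49 to -0.10 in the other 8 libraries. Myh1, a fast skeletal myosin, was 11.5 CPM in HET-718 and 0.247 to 0.43 in the other HET libraries. Of the KO libraries, the highest skeletal muscle score was 7.70 and the highest Myh1 level 898 CPM, in the same animal. The fat cell score was 1.04 in HET-692 and 0.93 in WT-719 against -0.80 to 0.27 in the other 8, and Lpl, lipoprotein lipase, was 21.3 and 18.4 CPM there. Rbp7 was high in HET-718 (4.8 CPM) and HET-692 (1.12 CPM). It was also high in HET-735 (3.1 CPM), where the muscle and fat scores were -0.19 and -0.11. In WT-720 and WT-719 Rbp7 was 0.321 and 0.251 CPM. The part of attached fat or muscle in these values was not tested.

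**Figure D5:**
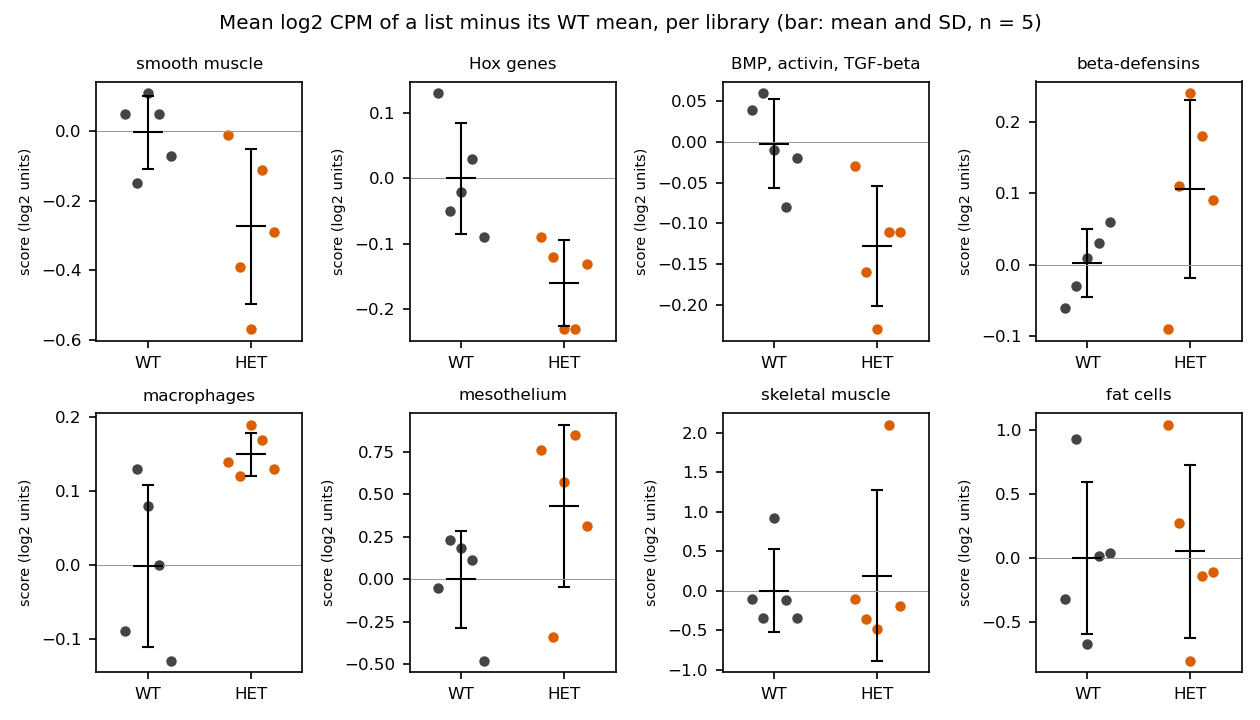
Each panel gives the score of a gene list in the 5 WT (grey) and 5 HET (orange) libraries, as the mean log2 CPM of its tested genes minus the WT mean; the bar is the mean with the SD. Smooth muscle, Hox and BMP scores are lower in most HET libraries and macrophage scores higher, with WT and HET values next to or within each other's range, while skeletal muscle and fat are set by single libraries.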

How the data were processed

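The deposited values are raw counts of reads per gene, 1 row per NCBI Gene ID; the submitters' processing notes list FastQC, HISAT2 (version 2.0.5), Subread (version 1.4.6p5), its counter featureCounts and the build GRCm38.p6; a strand setting and annotation release are not given in the sources used here. Per the labels' protocols, libraries were made from 2 ug of RNA with a stranded mRNA kit. Genes were named through a RefSeq table (40290 of 41591 IDs); unnamed IDs, 0.163% to 0.208% of each library, were kept in its total. Library totals were 20.3 to 42 M, the biological coefficient of variation was 16.3%, and counting noise is small beside it for well counted genes but exceeds it for genes with few counts, such as Evx1, Evx1os and Cd79b.

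Counts were fitted with edgeR 4.0.16 in R 4.3.3 (TMM, filterByExpr on genotype, robust quasi-likelihood, all 15 libraries, 12 residual degrees of freedom); p-values are two-sided and adjusted by Benjamini-Hochberg. Scores use log2 CPM with a prior count of 2. Nothing says that animals were littermates. The p-values, SEs and intervals rest on a spread between animals estimated from all 15 libraries, so the spread within KO enters them. With only the HET and WT libraries, 394 genes were higher and 866 lower at an unadjusted p below 0.05 by edgeR, against 428 and 426. Alternatives were other scaling and filters, DESeq2 1.42.0, limma 3.58.1, sva 3.50.0, the 10 HET and WT libraries alone, animal numbers as a term or restriction, libraries with over 1% ribosomal RNA genes left out, each library left out, and, added later, a GC correction with a smooth curve per library from GENCODE transcripts. The test was checked on counts simulated with the means, dispersions and library sizes of these data. At an adjusted p below 0.05 it called 53.7% of genes changed 1.5-fold in HET, 68.7% of those changed 2-fold and 98.5% of those changed 4-fold. Of 153 genes called, 7 were false. Genes were named by rule: Plag1; of genes with at least 1 CPM, the 10 smallest p-values each way and the 8 largest differences each way without overlap; and up to 4 genes of each of 48 lists. Members, lists and rule were chosen with earlier results of these data known.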

Additional observations from a re-analysis of the deposited data

Results flagged for a closer look

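A single library stood far from the other 4 of its genotype in 27 of 334 groups of 5 libraries looked at, by Dixon's test at its 95% critical value, which chance gives in about 1 in 20 groups. No explanation of these values was tested.

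In WT, WT-726 was low in Cnmd (0.163 CPM) and in Hoxa11 (2.77 CPM). WT-719 was low in Vwa2 (67.3 CPM) and high in Ifit1 (2.66 CPM) and Lpl (18.4 CPM). WT-720 was high in Defb20 (3676 CPM), Hoxd10 (8.43 CPM), Cnn1 (339 CPM), Meg3 (2.68 CPM) and Myh1 (1.82 CPM), and in the scores of skeletal muscle (0.92), of corpus, cauda and vas deferens epithelium (0.16) and of testis somatic cells (0.11). WT-709 was high in Coa6 (7.53 CPM), in H2-Ab1, a class II antigen presentation gene (8.18 CPM), and in Hspa1a, a heat shock gene (3.92 CPM). WT-723 was high in Fos, an immediate early gene (9.46 CPM), and in the lymphocyte score (0.14).

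In HET, HET-718 was high in Myh1 (11.5 CPM), in the skeletal muscle score (2.10) and in Ndufs3, a subunit gene of respiratory complex I (22.9 CPM, against 2.04 to 2.59 in the other HET libraries), and low in Bmp2 (0.91 CPM). HET-715 was high in Adgre1 (8.74 CPM) and Ifit1 (4.12 CPM). HET-692 was high in Smad6 (3.68 CPM), HET-693 was low in Bmp7 (10.1 CPM), and HET-735 was low in Gjb2 (5.42 CPM).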

How the results depend on the processing

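The count of 0 genes past the adjusted threshold held in each of the 23 other fits but DESeq2, which called 1 gene lower, Pfn1 (adjusted p = 0.0274). Counts at an unadjusted p below 0.05 moved more: 731 higher and 1064 lower with the animal number range as a term, 1010 and 1499 with limma voom, 257 higher with the GC correction, 866 lower with only the 10 HET and WT libraries, and 646 lower among animals numbered above 700. Leaving out each library gave 204 to 392 higher and 280 to 1073 lower. Of 118 named genes, 2693 of 2697 values in other fits kept their sign and their side of the threshold. The exceptions are Pfn1 and 3 changes of sign: Myh1 to -0.83 without HET-718 (up to 3.18 without WT-720), Lpl to -0.11 among animals numbered above 700, and Igf2 to 0.05 with the number range as a term. The cause of the last 2 was not tested. Plag1 ranged from -0.39 to -0.26. Of 48 list medians, 23 kept their sign in every other fit that gave a value, smooth muscle (-0.33 to -0.19) among them, and 25 changed sign in some fit; 27 of 1103 values moved by more than the SD of the HET scores. Of these 25, 20 lay within 0.06 of 0, among them the corpus and cauda, basal cell and heat shock lists. The others were skeletal muscle, fat cells, sperm and germ cells, seminal vesicle and prostate, and the cell cycle. No paired analysis was possible because the animal numbers are not shared between genotypes. A change of 1.5-fold below 1 CPM could mostly not be seen at this depth.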

Other observations

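Several immediate early and heat shock genes had a lower mean in HET and a wide spread in WT. Junb, an immediate early gene, was 12.4, 7.96, 4.65, 9.72 and 9.72 CPM in HET and 28.3, 12.2, 19.6, 20.4 and 6.23 CPM in WT, where WT-719 and WT-726 lay within the HET range. Ier2 (11.1 ± 2.21 against 16.2 ± 5.68 CPM) was also highest in WT-709 and lowest in WT-726, and Fos was 2.21 ± 0.41 against 3.93 ± 3.11, with WT-723 alone at 9.46. Of 21 immediate early genes 3 had an unadjusted p below 0.05, all lower, against 2.20% of all genes, with a median of -0.06 that ran from -0.16 without WT-726 and -0.12 without HET-715 to -0.02 without WT-723. Of 14 heat shock genes, Hspa1a (0.459 ± 0.288 against 1.56 ± 1.37 CPM) and Hspa1b (1.11 ± 0.426 against 2.22 ± 1.11), which are near-identical copies, were lower at that level, against 2.20% of all genes, and the list median was 0.01. The genes Uqcrq of complex III (41 ± 7.98 against 59.4 ± 20.3 CPM) and Rplp2 of the ribosome (178 ± 30.5 against 263 ± 80.5) were high in WT-709, WT-720 and WT-723 and low in WT-726, while the medians of oxidative phosphorylation (0.03) and ribosomal protein genes (0.02) lay near 0. Rps13 was 166 ± 14.5 against 192 ± 17.6 CPM.

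Of 19 tested clock genes 7 were positive and 12 negative. At an unadjusted p below 0.05, 2 were higher and 2 lower, against 2.21% and 2.20% of all genes. The median was -0.12, or -0.05 with the GC correction and -0.03 among animals numbered above 700. Arntl was higher without overlap. The output gene Dbp (11.7 ± 1.17 against 15.7 ± 2.84 CPM) and the repressor gene Per2 (11.7 ± 2.27 against 14.5 ± 1.46) were lower and Nfil3 higher (10 ± 0.779 against 8.83 ± 0.754), each with overlap. Among animals numbered above 700 the log2 differences were 0.24 (Arntl), -0.41 (Dbp), -0.17 (Per2) and 0.16 (Nfil3), against 0.34, -0.42, -0.31 and 0.19 over all libraries. Against the same WT libraries KO gave 0.49 for Arntl (adjusted p = 0.0104), -0.76 for Dbp (0.0137) and -0.63 for Per2 (0.0164). Among KO libraries Dbp was lower, and Arntl higher, in every animal numbered below 700 than in any numbered above 700, whereas Per2 overlapped. The time of collection is not given in the sources used here, so genotype and time of day cannot be told apart.

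The cell cycle list had a median of 0.22 (23 of 26 positive), with a score of 0.75 in HET-692, -0.06 to 0.26 in the other HET libraries and -0.26 to 0.30 in WT. Its median was 0.04 without HET-692 and -0.03 among animals numbered above 700. Rrm2, of nucleotide synthesis, was 9.92 ± 0.853 against 8.6 ± 0.562 CPM, and Ccnb1, a mitotic cyclin that germ cells also express, 5.05 ± 1.61 against 3.37 ± 1.15. Sperm and germ cell genes gave 0.22 as well, with HET-692 at a score of 0.61. That median was 0.09 without HET-692, 0.11 without WT-720 and 0.05 among animals numbered above 700, and its lowest value in any fit was -0.09. Smcp, a sperm mitochondrial protein, was 21.8 ± 4.42 against 17.2 ± 5.25 CPM. Of 5 tested genes of testis somatic cells 3 were positive and 2 negative, with a median of 0.01; Aard was 2.58 ± 0.126 against 1.91 ± 0.199 CPM without overlap.

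Antigen presentation genes had a median of -0.16, which was -0.07 without WT-723, -0.32 without WT-726 and -0.17 to -0.11 without any other single library. H2-K1, a class I gene, was 32.6 ± 2.46 CPM in HET and 45.4 ± 12.8 in WT, where WT-726 was highest at 65.5, and H2-Ab1 was 1.68 ± 0.316 against 2.99 ± 2.93, with WT-709 at 8.18. Interferon response genes had a median of 0.09 (20 of 23 positive), with Mx2 at 1.56 ± 0.37 against 1.16 ± 0.157 CPM and Ifit1 at 2.77 ± 0.783 against 1.91 ± 0.418. In the retinoid pathway (median -0.03) the synthesis gene Aldh1a2 was 19.5 ± 2.32 against 16.9 ± 0.892 CPM and the degrading enzyme gene Cyp26b1 6.48 ± 0.727 against 7.91 ± 0.417. The 18 imprinted growth genes had a median of -0.03, with the non-coding Meg3 at 0.774 to 4.11 CPM in HET and 0.502 to 2.68 in WT.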
